A study of Mus musculus with 278 samples.

Results

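Of 278 single spermatogonia, 124 had Hlf at an FPKM of at least 1 and are called Hlf-detected cells here; the other 154 cells had Hlf below 1. FPKM counts fragments relative to transcript length in kilobases and to the cell's total of mapped fragments. The members were selected on this measured value of Hlf, so the level of Hlf is a description and Hlf was left out of every test. No gene passed the test between Hlf-detected and other cells once the EGFP quartile was held equal, and none passed without that step. Brightness can still vary within a quartile. Among genes with the same sign in 5 of 5 preparations, those of smallest p were Gfpt2, higher in Hlf-detected cells, and Lck and Npdc1, lower in them; none of these passed. Genes that mark bright Id4-EGFP cells had higher values in Hlf-detected cells before the quartile was held equal, and their differences were smaller afterwards. Some of these genes were picked on brightness in these same cells, and Hlf-detected cells were on average most frequent among the brightest. Neither the direction nor the smaller differences afterwards are therefore independent evidence.

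All cells came from untreated mice at postnatal day 6 that carry an Id4-EGFP reporter, in which EGFP fluorescence follows the Id4 locus. EGFP-positive cells from testes pooled over at least 2 pups per preparation were sorted, captured singly on Fluidigm C1 chips and imaged, and the submitters dropped dead cells, multiplets and wells that held debris. By EGFP fluorescence the cells were split into 4 quartiles of 74 cells (Q1, bright), 70 (Q2), 74 (Q3) and 60 (Q4, dim). The sample titles number 5 preparations, which held 26, 62, 37, 75 and 78 cells. Hlf-detected and other cells share genotype, chips and reporter, and the EGFP gate limits both to Id4-EGFP-positive spermatogonia.

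Hlf (hepatic leukemia factor) is a transcription factor of the PAR bZIP family, with Dbp and Tef. These proteins bind DNA as dimers at D-box elements, which the bZIP repressor Nfil3 also binds, and they pass circadian output to liver, kidney and brain genes in mouse. In blood, Hlf is known as a marker of hematopoietic stem cells. Id4 belongs to a family of proteins that bind E proteins and keep them from E-box DNA, and it marks the spermatogonial stem cell end of the undifferentiated pool. That pool depends on GDNF, which signals through the receptors Gfra1 and Ret and induces Etv5 and Bcl6b. Progenitors that leave it express Neurog3, Sox3 and Sohlh1, and retinoic acid then drives the change to Kit-positive and Stra8-positive differentiating cells.

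Germ cell genes marked both groups. Each of the 6 germ cell markers examined (Ddx4, Dazl, Mael, Uchl1, Dnd1 and Tdrd1) was detected in both groups, and the cell with the fewest had 4 of 6 in either group. Their summed level was 3249 ± 166 FPKM in Hlf-detected cells and 3274 ± 146 FPKM in other cells (SD over preparation means, n = 5 each). Among defining markers of somatic cells, Amh (Sertoli) and Cyp11a1, Cyp17a1 and Insl3 (Leydig) were listed at 0 in every cell, while others were not. Star, of steroid synthesis, was at an FPKM of at least 1 in 30 Hlf-detected cells (24.2%) and 25 other cells (16.2%). The macrophage marker Cd68 was detected in 23 Hlf-detected and 17 other cells, and the Sertoli factors Sox9 in 12 Hlf-detected and 9 other cells and Wt1 in 6 Hlf-detected and 11 other cells. The leukocyte marker Ptprc was at an FPKM of at least 1 in 5 of 124 Hlf-detected cells and in 0 of 154 other cells, which allows a share of up to 1.95% (3 cells; counting error only).

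The threshold cut through a continuous range of low values. The values just inside it were 1.15, 1.15 and 1.18 FPKM, and those just outside were 0.974, 0.956 and 0.841 FPKM. Above 0 but below 1 lay 32 cells, and 122 cells were listed at 0. Among Hlf-detected cells the median was 5.91 FPKM, 51 cells lay between 1 and 5 and 73 at 5 or more, and the highest cells had 101 and 54.5 FPKM. On GRCm38 Hlf lies on chromosome 11 at 90336536 to 90390895 on the minus strand, and no other annotated exon overlaps its exons. For its longest annotated transcript of 5642 bases, 1 FPKM corresponds to about 3.53 fragments at the median estimated depth, and to between 1.16 and 7.0 fragments over the range of depths. A cell below 1 FPKM may therefore hold Hlf transcripts that were missed.

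Hlf-detected cells were found in every preparation, but not equally. They made up 69.2% of preparation 1, 54.8% of preparation 2, 32.4% of preparation 3, 36% of preparation 4 and 42.3% of preparation 5. Their median Hlf level was 5.65, 4.76, 15.9, 5.84 and 6.73 FPKM in that order, so that preparation 3 had the fewest Hlf-detected cells and the highest median among them. Preparation 3 also stood apart by its low number of detected genes, given with the results on depth.

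The mean share of Hlf-detected cells over preparations was highest in the brightest quartile. By preparation it was 100%, 81.2%, 45.5%, 60% and 78.9% in Q1, a mean of 73.1 ± 21% (SD, n = 5). In Q2 the mean was 35.4 ± 22%, in Q3 47 ± 17.5% and in Q4 22.5 ± 8.51%. Within each of the 5 preparations the share in Q1 exceeded that in Q4, whose values were 25.0%, 33.3%, 14.3%, 13.3% and 26.3%. In preparation 3 the share was 50% in Q3, above its 45.5% in Q1. The order was not even: the mean share was higher in Q3 than in Q2, by less than the spread over preparations. In all, 53 of 74 cells in Q1 were Hlf-detected, as were 26 of 70 in Q2, 31 of 74 in Q3 and 14 of 60 in Q4. Hlf detection was therefore not another name for the bright quartile, since 71 of the 124 Hlf-detected cells lay outside it and 21 other cells lay in it. No cell of preparation 1 in Q1 was below the threshold and no cell of preparation 3 in Q2 reached it, so these strata gave no within-quartile contrast.

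**Figure D1:**
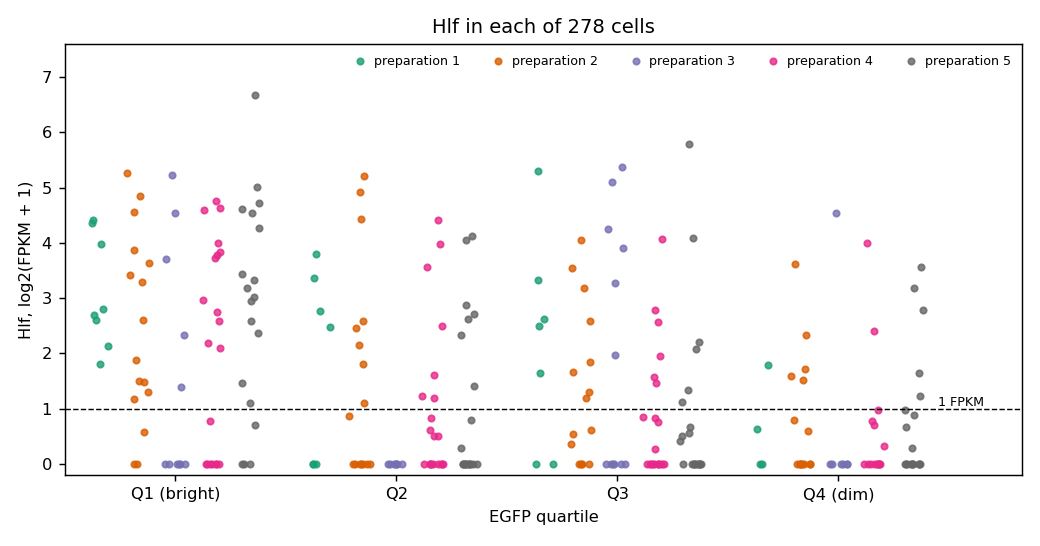
Hlf level of each of the 278 cells as log2(FPKM + 1), by EGFP quartile and, within each quartile, by preparation in color. The dashed line is 1 FPKM: 53 of 74 cells in Q1 and 14 of 60 in Q4 lie above it.

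Hlf-detected cells shared most of the marker genes of spermatogonial states with the other cells. Id4 was at an FPKM of at least 1 in 62 of 124 Hlf-detected cells (50%) and 54 of 154 other cells (35.1%). Gfra1 was detected in 99 Hlf-detected cells (79.8%) and 98 other cells (63.6%). Kit, the receptor of differentiating spermatogonia, was detected in 80 Hlf-detected cells (64.5%) and 84 other cells (54.5%). Gfra1 without Kit occurred in 36 Hlf-detected cells (29%) and 39 other cells (25.3%), and Kit without Gfra1 in 17 Hlf-detected cells (13.7%) and 25 other cells (16.2%). Cells with both numbered 63 Hlf-detected (50.8%) and 59 other (38.3%). These shares pool cells over preparations and quartiles and carry no test.

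Whether a low transcript is detected also moves with how many genes a cell yields. Hlf-detected cells had on average 7166, 6955, 4809, 6273 and 6041 detected genes (FPKM of at least 1) in preparations 1 to 5, and other cells had 7106, 6943, 4258, 5956 and 5753. The mean was higher in Hlf-detected cells in 5 of 5 preparations, by 246 ± 218 genes (SD, n = 5; exact two-sided sign-flip test over preparations, p = 0.0625, the smallest it can give). At equal quartile the difference was 174 ± 228 genes, positive in 3 of 5 preparations (exact p = 0.25). It rested largely on preparation 3, without which it was 91.1 genes. The estimated number of fragments was slightly lower instead: the log2 ratio of Hlf-detected to other cells at equal quartile was -0.09 ± 0.16, above 0 in 1 of 5 preparations (exact p = 0.3125). Estimated depth ran from 205593 to 1240002 fragments per cell, with a median of 625817. Because of the detected genes, the test over all genes was also run at equal numbers of detected genes, and values from that fit are given for the leading genes and lists; their part in the differences was otherwise not tested.

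The main comparison asked which genes followed Hlf beyond the EGFP quartile. Brightness within a quartile was not held equal. Within each preparation the difference in log2(FPKM + 1) between Hlf-detected and other cells was fitted with the quartile as a term, and the 5 differences per gene were tested with limma, weighted by the information each preparation held. Of 10451 genes tested, 0 passed a Benjamini-Hochberg adjusted p of 0.05 (0%). At an unadjusted limma p under 0.05, 475 genes were higher in Hlf-detected cells (4.55%) and 136 lower (1.30%), 611 in all where equal numbers at every p would put 522.55. The smallest adjusted p was 0.363. The median difference of all genes was 0.05, with 59% of genes above 0, so that higher values prevailed slightly across the transcriptome.

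At equal quartile and equal numbers of detected genes, 0 of 10451 genes passed in limma (0%), 330 were higher (3.16%) and 267 lower (2.55%) at an unadjusted p under 0.05, and the smallest adjusted p was 0.644. The median difference was then -0.00. The excess of higher over lower genes was smaller in this fit. The number of detected genes is counted over these same genes, so a shift of the median toward 0 is built into the fit. Without the quartile term, 0 genes passed as well (0%), with 607 higher (5.81%) and 130 lower (1.24%) at an unadjusted p under 0.05 and a smallest adjusted p of 0.103.

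**Figure D2:**
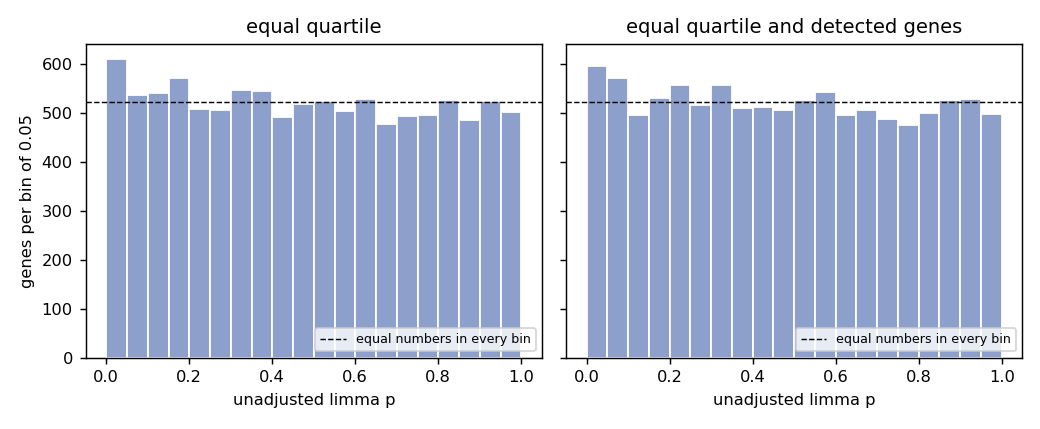
Number of genes by unadjusted limma p for Hlf-detected minus other cells, at equal quartile (left) and at equal quartile and detected genes (right), in bins of 0.05. The first bins hold 611 and 597 genes, against the dashed line at 522.55 that equal numbers in every bin would give.

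Gfpt2, the enzyme of the first step of the hexosamine pathway, led the genes that were higher in Hlf-detected cells in 5 of 5 preparations. It averaged 39.9, 56.8, 46.6, 66.5 and 60.5 FPKM in Hlf-detected cells of preparations 1 to 5, and 47.1, 25.4, 33.3, 29.7 and 24.3 FPKM in other cells. The plain means were higher in Hlf-detected cells in 4 of 5 preparations, and the lone exception was preparation 1. At equal quartile the difference was 1.45 ± 0.27 on the log2(FPKM + 1) scale (limma SE, n = 5; 95% interval 0.88 to 2.03, not adjusted for the number of genes), with preparation values of 1.49, 1.42, 0.40, 1.92 and 1.45. Its limma adjusted p was 0.363. Gfpt2 was detected in 81.3% of Hlf-detected cells and 57.7% of other cells on average, and by range of Hlf it averaged 30.7 ± 14 FPKM where Hlf was listed at 0, 28.9 ± 22.8 where Hlf lay between 0 and 1, 45 ± 7.0 where Hlf was 1 to 5, and 60.9 ± 16.1 where Hlf was 5 or more (SD over 5 preparations, 4 for the second range). Gfpt2 was picked on its contrast in these same cells, so this rise is no independent support. From the range of 1 to 5 to that of 5 or more, Gfra1 went from 32.5 to 46.9 FPKM and Etv5 from 38.6 to 58.4. Ccnb2 went from 186 to 168 FPKM and Npdc1 from 4.17 to 4.87, and Id4 stood at 12.7 in both. These range means mix the quartiles and do not hold brightness equal. The median Hlf level of Hlf-detected cells was itself 9.08 FPKM in Q1 and 4.15 FPKM in Q4. At equal detected genes the difference in Gfpt2 was 1.33 ± 0.28 (limma adjusted p = 0.729). It was then positive in 4 of 5 preparations only, so that Gfpt2 is not among the genes the rule names in that fit. Without the quartile term it was 1.69. Gfpt2 lies on chromosome 11 at 49794178 to 49838613 of GRCm38, and no annotated exon of another gene overlaps its exons.

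The other 14 leading genes that were higher in Hlf-detected cells belong to several functional classes. Each had an adjusted limma p of 0.796. Magea5, an X-linked gene of the MAGE family, whose related copies may share reads, averaged 75.5 ± 18.7 FPKM in Hlf-detected cells and 40.6 ± 11.8 FPKM in other cells, a difference of 1.251 ± 0.29. Optn, an autophagy receptor, averaged 14.7 ± 2.82 FPKM in Hlf-detected cells and 9.80 ± 7.96 FPKM in other cells, a difference of 0.99 ± 0.23. For Rasl11a, a Ras-like GTPase, the 5 preparation means in Hlf-detected cells lay between 22.2 and 31.3 FPKM, while those in other cells spread from 0 to 41.7 FPKM. Their ranges overlap, and the preparation with the highest value in other cells was preparation 1, which holds only 8 of them. Jtb, a membrane protein, averaged 59.9 ± 14.9 FPKM in Hlf-detected cells and 36.3 ± 2.84 FPKM in other cells.

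Ccnb2, the mitotic cyclin B2, averaged 117, 147, 237, 203 and 149 FPKM in Hlf-detected cells, against 129, 118, 136, 142 and 113 FPKM in other cells. It differed by 1.03 ± 0.28, and its difference in preparation 3 was 3.23. There it was detected in 100% of Hlf-detected cells and 72% of other cells, in the preparation with the fewest detected genes. Tm2d3, a membrane protein of the TM2 domain family, had the same kind of profile, with detection in preparation 3 in 91.7% of Hlf-detected cells and 60% of other cells. Reads of Tm2d3 cannot be told apart from those of Tarsl2 where their annotated exons overlap on the same strand. At equal detected genes the differences were 1.11 for Magea5, 0.96 for Optn, 1.00 for Rasl11a, 0.97 for Jtb, 0.99 for Ccnb2 and 0.77 for Tm2d3. The remaining higher genes were Zik1, Arhgef5, Fam160b1, Rdm1, Atf7ip2, Bbs5, 1700023L04Rik and Sirpa, with differences between 0.56 (Arhgef5) and 1.14 (Atf7ip2). Of these, Atf7ip2 encodes a partner of a histone methyltransferase in meiosis, Bbs5 a subunit of the BBSome that serves cilia, and Sirpa the receptor of CD47.

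Lck and Npdc1 led the genes that were lower in Hlf-detected cells. Lck, a Src family kinase best known from T cells, averaged 2.82, 4.07, 0, 2.65 and 0.393 FPKM in Hlf-detected cells, against 17.2, 7.84, 1.43, 7.49 and 5.86 FPKM in other cells. It was lower in Hlf-detected cells in every preparation, with a difference of -0.75 ± 0.16 at equal quartile (limma adjusted p = 0.771). Lck was detected in few cells of either group, on average 7.62% of Hlf-detected and 19.5% of other cells. It reached 1 FPKM in 10 Hlf-detected and 28 other cells, so it met the filter of 10% of all cells only through the other cells. Across ranges of Hlf, again with the quartiles mixed, Lck averaged 9.51 FPKM at 0, 1.51 FPKM between 0 and 1, 3.03 FPKM at 1 to 5 and 1.37 FPKM at 5 or more. The 32 cells between 0 and 1, which count among the other cells, were thus as low as Hlf-detected cells. Npdc1, a gene tied to neural cell proliferation and differentiation, averaged 10.1, 3.20, 0, 7.61 and 1.21 FPKM in Hlf-detected cells, against 7.75, 18.3, 9.0, 19.1 and 19.1 FPKM in other cells. Its difference was -1.13 ± 0.25 (limma adjusted p = 0.771), and its plain means were lower in 4 of 5 preparations. Lck differed by -0.77 and Npdc1 by -1.23 at equal detected genes, each below 0 in 5 of 5 preparations. Lck lies on chromosome 4 at 129548344 to 129573641 and Npdc1 on chromosome 2 at 25399351 to 25409494, and exons of Mir8119 and Entpd2 overlap theirs on the same strand.

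The other 8 lower genes had an adjusted limma p of 0.796 each. Fbxo41, an F-box protein, averaged 3.17 ± 2.32 FPKM in Hlf-detected cells and 9.62 ± 7.06 FPKM in other cells. Zcchc3, a zinc-knuckle nucleic acid sensor, averaged 6.80 ± 3.90 FPKM in Hlf-detected cells and 13.3 ± 5.04 FPKM in other cells. Zglp1, a GATA-like factor that in mouse starts the oogenic program, averaged 44.1 ± 26.2 FPKM in Hlf-detected cells and 84 ± 37 FPKM in other cells, with a preparation range in the fitted difference from -2.39 to -0.15. The kinase Nek9, the small GTPase Rab28, the Rab5 exchange factor Rin2, the tRNA enzyme Thg1l and the nucleoporin Nup43 made up the rest, with differences between -0.89 and -0.60. With detected genes held equal as well, the same rule also named Snhg3, a host of small nucleolar RNAs (difference 0.67), Psat1, an enzyme of serine synthesis (-0.67), and Gm41 (-0.72). The small nucleolar RNA Snora81 had the smallest p of all genes (difference 1.28 ± 0.23), was higher in Hlf-detected cells in 4 of 5 preparations only, overlaps an annotated exon of Eif4a2 on the same strand, and was singled out after its values were seen.

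**Figure D3:**
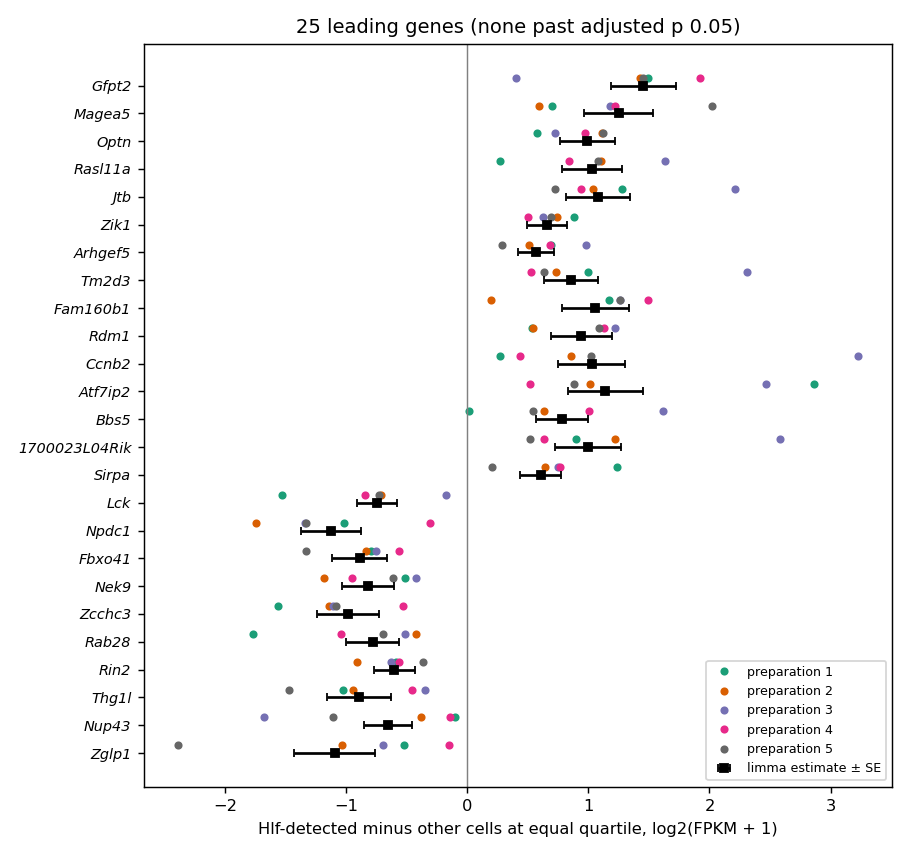
Difference in log2(FPKM + 1), Hlf-detected minus other cells at equal quartile, for the 15 leading higher and 10 leading lower genes; colored points are the 5 preparations, black squares the weighted limma estimate with its SE. All points of a gene lie on one side of 0 because the rule asked for it, and preparation 3 holds the far points of Ccnb2 (3.23) and Tm2d3 (2.31).

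Differences of most stem cell genes named here were smaller once the quartile was held equal. For Id4, whose locus the reporter follows, this is in part built in, because the reporter sets the quartile. Id4 averaged 10.1, 9.98, 9.56, 16.3 and 16.9 FPKM in Hlf-detected cells, against 0.539, 6.66, 8.50, 8.71 and 5.68 FPKM in other cells. Its plain mean was higher in Hlf-detected cells in every preparation. The difference was 0.64 ± 0.22 without the quartile term and 0.18 ± 0.25 with it (95% interval -0.35 to 0.70, limma adjusted p = 0.967). With detected genes held equal as well it was 0.20 ± 0.25. No difference in Id4 beyond the quartile could thus be shown, and one of up to 0.70 lies within the interval. Gfra1, the GDNF co-receptor, had 0.90 ± 0.27 without and 0.49 ± 0.27 with the quartile term. Its partner Ret had 0.66 ± 0.25 without and 0.38 ± 0.28 with it.

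Etv5, an ETS factor induced by GDNF and FGF, kept more of its difference, with 1.09 ± 0.25 without and 0.88 ± 0.27 with the quartile term (limma adjusted p = 0.796). It averaged 56.7, 55.6, 52.9, 42.5 and 48.1 FPKM in Hlf-detected cells and 59.1, 34.2, 65.6, 24.4 and 32.3 FPKM in other cells. Hlf-detected cells were higher in preparations 2, 4 and 5 and lower in preparations 1 and 3, so the groups overlap. Etv5 differed by 0.90 ± 0.27 at equal detected genes. Id3, which like Id4 binds E proteins, was higher at equal quartile in 5 of 5 preparations, by 0.60 ± 0.20 (limma adjusted p = 0.796), and was detected in 30.5% of Hlf-detected cells and 13.6% of other cells.

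As lists, the GDNF or FGF response genes and the stem cell associated genes held no gene that passed. At equal quartile 20 of the 31 tested stem cell associated genes (64.5%) and 21 of the 27 tested GDNF or FGF response genes (77.8%) lay above 0, against 59% of all genes. Of 31 tested stem cell associated genes, 4 were higher and 0 lower at an unadjusted p under 0.05, with a median difference of 0.14; without the quartile term the count was 12 higher and 0 lower, with a median of 0.20. Of 27 tested GDNF or FGF response genes, 3 were higher and 0 lower at equal quartile (median 0.18), and 13 higher and 0 lower without the quartile term (median 0.39). The 13 genes picked earlier on these same cells as those of the brightest quartile had a median of 0.44 at equal quartile, with 5 higher and 0 lower, and of 0.72 without the quartile term, with 12 higher and 0 lower. That list was chosen on these cells and is no independent evidence of its direction. Because Hlf-detected cells were most frequent in Q1, its smaller median at equal quartile is in part built in as well. Among all genes the medians were 0.05 at equal quartile and 0.07 without the quartile term. The shares of all genes at an unadjusted p under 0.05 were 4.55% higher and 1.30% lower at equal quartile. Without the quartile term they were 5.81% higher and 1.24% lower. At equal detected genes the medians were 0.11 for the stem cell associated, 0.17 for the GDNF or FGF response and 0.35 for the brightest quartile genes, against -0.00 for all genes.

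Upf3b, a factor of nonsense-mediated decay and 1 of those 13, averaged 73.8 ± 28.6 FPKM in Hlf-detected cells and 44.6 ± 15.4 FPKM in other cells. Its difference was 1.32 ± 0.24 without and 0.83 ± 0.28 with the quartile term. Nefm, a neurofilament subunit, averaged 36.9 ± 12.1 FPKM in Hlf-detected cells and 19.6 ± 6.40 FPKM in other cells, with differences of 1.30 ± 0.27 and 0.98 ± 0.29. Tcl1, a coactivator of Akt, averaged 197 ± 22 FPKM in Hlf-detected cells and 112 ± 31.9 FPKM in other cells, with 1.26 ± 0.24 and 0.75 ± 0.29. Snrpn, an imprinted spliceosomal gene, had the smallest of these differences at equal quartile, with 0.71 ± 0.26 without and 0.21 ± 0.28 with the quartile term. Capg, an actin-capping protein, had 0.86 ± 0.22 and 0.44 ± 0.25. At equal detected genes the differences were 0.92 for Upf3b, 1.06 for Nefm, 0.72 for Tcl1, 0.20 for Snrpn and 0.35 for Capg. None of these 5 genes passed with any of the 3 fits.

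**Figure D4:**
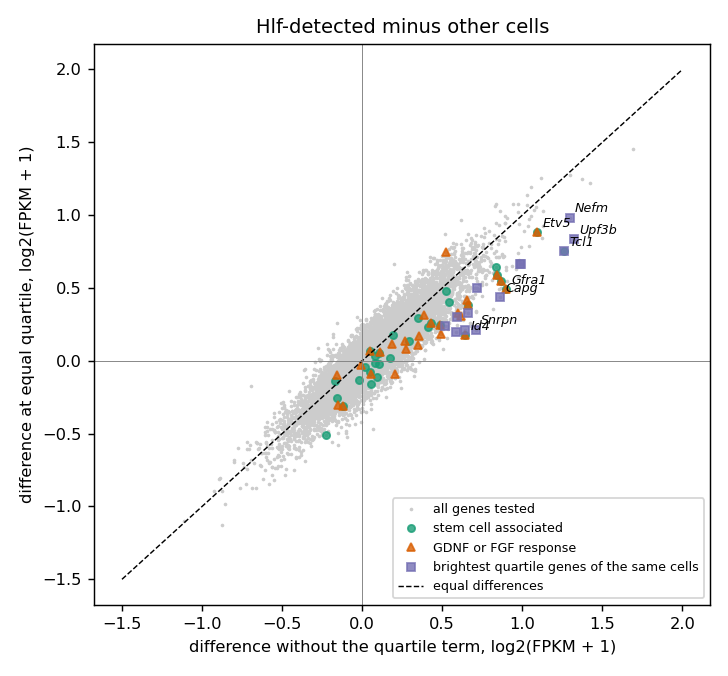
Difference in log2(FPKM + 1), Hlf-detected minus other cells, without the quartile term (horizontal) and at equal quartile (vertical) for each of 10451 genes in grey, with 3 gene lists in color. Id4 (0.64 and 0.18) and Snrpn (0.71 and 0.21) lie far below the line of equal differences, and Etv5 (1.09 and 0.88) and Nefm (1.30 and 0.98) closer to it.

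Genes of progenitors and differentiating cells lay on either side of 0. Neurog3, a progenitor factor, averaged 3.86 ± 3.48 FPKM in Hlf-detected cells and 4.30 ± 2.99 FPKM in other cells, and differed by 0.02. Nanos2, an RNA-binding guardian of the stem cell state, differed by -0.01, and Zbtb16, a zinc finger factor of undifferentiated cells, by 0.05. Kit differed by 0.17 ± 0.32 and Stra8, the retinoic acid target of meiotic entry, by -0.14 ± 0.26, both with preparations on either side of 0. Sohlh1, a bHLH factor that starts differentiation, averaged 105, 104, 160, 80.8 and 71.5 FPKM in Hlf-detected cells, against 160, 150, 154, 106 and 73.2 FPKM in other cells, and differed by -0.47 ± 0.23 (limma adjusted p = 0.874), below 0 in 4 of 5 preparations. It differed by -0.66 ± 0.22 at equal detected genes, below 0 in 5 of 5 (limma adjusted p = 0.815, unadjusted 0.00777). Of 9 tested progenitor genes, 0 were higher and 0 lower at an unadjusted p under 0.05 (median -0.12); 2 were lower and 0 higher both at equal detected genes (median -0.20) and without the quartile term (median -0.12). Of 12 tested differentiating genes 1 was higher and 0 lower (median 0.03). The higher one was Crabp1, at 0.50 ± 0.21 (limma adjusted p = 0.796), above 0 in 3 of 5 preparations. At equal detected genes 0 of the 12 were higher and 1 lower (median -0.04). The shares over all genes were 4.55% higher and 1.30% lower at equal quartile. Lower genes made up 2.55% of all genes at equal detected genes and 1.24% without the quartile term.

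No difference could be shown for the relatives of Hlf. Tef averaged 9.37, 11.4, 3.23, 1.86 and 7.18 FPKM in Hlf-detected cells and 10.7, 5.19, 5.56, 7.71 and 5.06 FPKM in other cells, and differed by 0.02 ± 0.28 (95% interval -0.58 to 0.62). Dbp and Nfil3 were detected in too few cells to be tested: Dbp in 9 Hlf-detected and 14 other cells, and Nfil3 in 11 Hlf-detected and 4 other cells. Of 15 tested genes of the PAR bZIP family and the circadian clock, 1 was higher and 0 lower at an unadjusted p under 0.05. It was Bhlhe41, a repressor of the clock, at 0.62 ± 0.27 (limma adjusted p = 0.808). The core clock genes Per1 and Cry1 differed by -0.01 and -0.13. Of 12 genes known as PAR bZIP targets in mouse liver or brain, 3 were expressed in enough cells to be tested (Por 0.51 ± 0.30, Alas1 0.24 ± 0.32 and Pdxk 0.13 ± 0.20). Of 6 tested blood stem cell genes, 0 were higher and 1 lower at an unadjusted p under 0.05: Erg, an ETS factor, at -0.44 ± 0.19. The shares over all genes at that threshold were 4.55% higher and 1.30% lower.

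The stretches upstream of Hlf, whose level chose the cells, and of Gfpt2, the first of the leading genes, are printed because the D-box was sought in such promoters. Both are the 250 bases before the RefSeq start on GRCm38.p6, read along the gene's strand, chr11:90390918-90391167 on the minus strand for Hlf and chr11:49793905-49794154 on the plus strand for Gfpt2. Capitals mark each E-box (CANNTG, the same on both strands).
Hlf: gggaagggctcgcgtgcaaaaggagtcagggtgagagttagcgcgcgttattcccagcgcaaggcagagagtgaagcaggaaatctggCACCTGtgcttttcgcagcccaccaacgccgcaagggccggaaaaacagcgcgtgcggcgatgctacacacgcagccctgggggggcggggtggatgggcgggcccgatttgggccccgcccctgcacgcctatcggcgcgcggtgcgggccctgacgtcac
Gfpt2: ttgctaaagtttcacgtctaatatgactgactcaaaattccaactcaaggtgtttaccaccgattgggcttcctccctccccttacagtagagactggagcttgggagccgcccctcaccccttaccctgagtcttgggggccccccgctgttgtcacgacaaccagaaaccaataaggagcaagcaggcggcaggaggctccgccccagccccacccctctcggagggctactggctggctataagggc

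Hlf has 1 E-box in this stretch and Gfpt2 has 0. The D-box was searched as TTATGTAA and TTACGTAA on both strands in windows from 250 bases before to 50 after each start. Of 32851 windows, 0.938% held the first, 0.119% the second and 1.06% either of them. Of the 25 leading genes 20 were matched to a window, and none held either; E-boxes were in windows of 16 of these 20 and in 72.3% of all windows. The absence says only that these letters are not in these windows.

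Cell cycle and respiratory genes were described as lists. Of 33 tested G2/M genes, 4 were higher and 0 lower at an unadjusted p under 0.05 (median 0.19, against 0.05 for all genes). Above 0 lay 28 of them (84.8%), against 59% of all genes. At equal detected genes their median was 0.04, against -0.00 for all genes. There 19 of the 33 lay above 0, as did 5192 of all 10451 genes. Besides Ccnb2, the leading members were Birc5 (survivin, 0.68 ± 0.22) and Cdc25b, a phosphatase that activates Cdk1 (0.77 ± 0.27). Of 46 G1/S genes, 1 was higher and 3 lower (median 0.02), among them the helicase subunit Mcm5 (-0.50 ± 0.19) and the histone mRNA-binding Slbp (-0.36 ± 0.15), both lower in 5 of 5 preparations. Of 86 respiratory chain genes, 8 were higher and 1 lower (median 0.11), with Uqcrh of complex III at 0.29 ± 0.10 and Cox6b1 of complex IV at 0.32 ± 0.12. At equal detected genes 8 were higher and 1 lower (median 0.09), against 3.16% higher and 2.55% lower among all genes. Of 76 ribosomal protein genes, 1 was higher and 0 lower (median 0.01). Shares near the 4.55% and 1.30% of all genes are not results about a list.

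**Figure D5:**
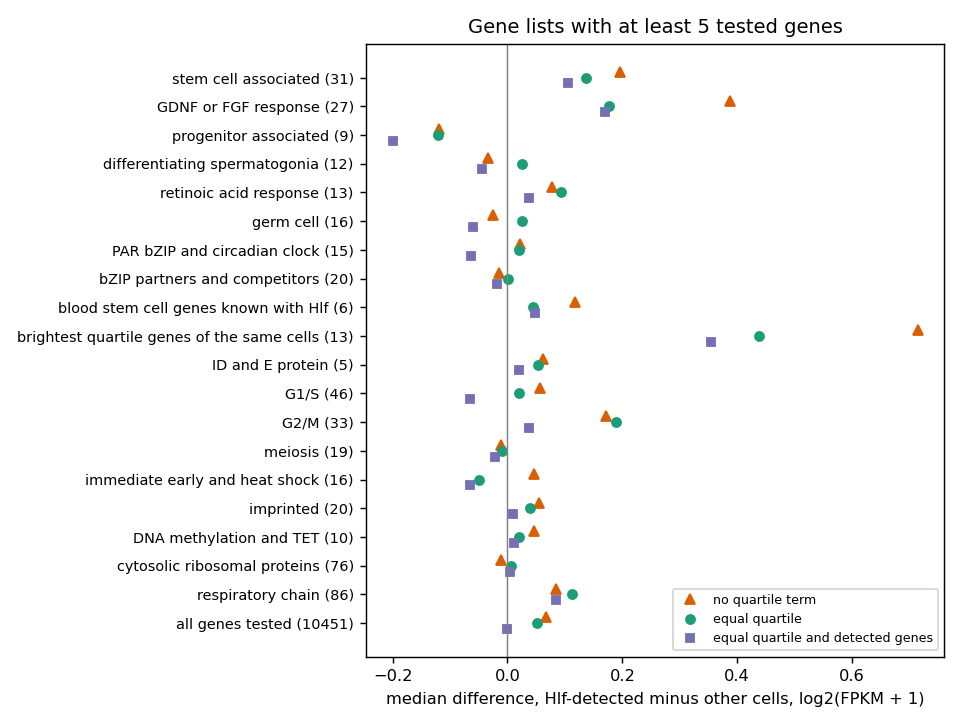
Median difference in log2(FPKM + 1), Hlf-detected minus other cells, for gene lists with at least 5 tested genes (number in brackets), without the quartile term, at equal quartile, and at equal quartile and detected genes. The brightest quartile genes stand at 0.72, 0.44 and 0.35, and the G2/M genes at 0.17, 0.19 and 0.04.

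Some genes of the somatic lists were detected in many cells of both groups. The Sertoli list gene Ctsl, a lysosomal protease that is not restricted to that cell type, was at an FPKM of at least 1 in 117 Hlf-detected and 139 other cells, and Trf, the gene of transferrin, in 67 Hlf-detected and 71 other cells. Fcer1g, of the macrophage and blood list, was detected in 37 Hlf-detected and 32 other cells. The 15 Sertoli genes summed to 179 ± 59.1 FPKM in Hlf-detected cells and 158 ± 25.7 FPKM in other cells (SD, n = 5), with ranges over preparations of 94.1 to 238 and 120 to 180, and Amh and Fshr were listed at 0 in every cell. Of the 9 Leydig genes 7 were listed at 0 in every cell, and the list summed to 2.27 ± 1.72 FPKM in Hlf-detected cells and 2.33 ± 2.09 FPKM in other cells. The macrophage and blood list summed to 26.3 ± 13 FPKM in Hlf-detected cells and 19.5 ± 14.6 FPKM in other cells, the endothelial list to 4.35 ± 3.13 and 5.96 ± 1.85 FPKM, and the stromal list to 6.22 ± 3.87 and 5.02 ± 2.36 FPKM. No tested member of these 5 lists had an unadjusted p under 0.05 at equal quartile.

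Whether the difference with Hlf itself depended on brightness was asked by setting the brighter quartiles (Q1 and Q2) against the dimmer ones (Q3 and Q4). Of 10451 genes, 0 passed in limma (0%), and the smallest adjusted p was 0.974. At an unadjusted limma p under 0.05, the signed difference was higher in bright than in dim cells for 279 genes (2.67%). It was lower in bright than in dim cells for 222 genes (2.12%). Gfpt2 differed by 1.43 in bright and 1.47 in dim cells. Etv5 differed by 0.69 in bright and 1.09 in dim cells, and Lck by -0.77 and -0.73. A dependence of the difference on brightness was not detectable for any single gene with 5 preparations.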

How the data were processed

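The deposited matrix gives FPKM per gene and cell; the authors used FastQC, TopHat, Cufflinks and Picard with mm10 (GRCm38), per the submitters' processing notes. The unit was read from the quantifier and the values; settings, versions, annotation and strand: not given in the sources used here. Its 23354 genes include 6247 at 0 in all 278 cells. Depth was estimated from how low FPKM values of 2114 single-transcript genes are spaced, where 5742 values fell on the step of 1 fragment and 4179 between steps, so the estimate is rough, and whole reads were not recovered.

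Count models do not apply to FPKM. Cells are not replicates: within each of 5 preparations log2(FPKM + 1) was regressed on Hlf status and quartile, and the 5 coefficients per gene were tested two-sided against 0 in limma 3.58.1 (R 4.3.3, with version 1.17.8 of data.table; trend = TRUE), weighted by the residual sum of squares of Hlf status, with Benjamini-Hochberg adjustment over the genes that reached 1 FPKM in 10% of cells or more. A pseudocount of 1 understates changes of low genes. Summaries and plots used Python 3.11.15, numpy 2.4.6, pandas 2.3.3 and matplotlib 3.10.9. Labels do not say that preparations came from separate litters, so p-values measure the spread between preparations, which may be technical.

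Preparation numbers come from the titles. Means of the same preparation deviated together (lowest correlation across genes 0.22, median 0.28, against -0.12 between preparations), so the numbers pair the groups and every main fit is within preparation. The highest correlation between 2 cells was 0.808, so no cell was taken as a duplicate. Coordinates and overlaps come from GENCODE M21 on GRCm38; 21703 symbols matched.

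Members and gene lists were chosen with earlier results of these data known. Named genes were the 15 higher and 10 lower genes of smallest p that moved the same way in 5 of 5 preparations, up to 8 each way at equal detected genes, a set of fixed genes, and the 3 of smallest p per list.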

Additional observations from a re-analysis of the deposited data

Results flagged for a closer look

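In 122 named genes the 5 preparation differences at equal quartile, Hlf-detected minus other cells on the log2(FPKM + 1) scale, were examined for a preparation far from the other 4. Among 5 equally precise values chance flags about 1 in 20 such groups, and 9 stood apart here. The weights of preparations 1 to 5 were 3.89, 13.5, 6.58, 15.3 and 15.6. That rate therefore need not hold for these groups, and no excess is claimed. Preparation 3, with the fewest detected genes, stood above the others for Tm2d3 (2.31, others 0.52 to 1.00) and Ccnb2 (3.23, others 0.27 to 1.02), and below them for Prdm16 (-0.17, others 0.28 to 0.40). Preparation 1, where 18 Hlf-detected cells face 8 others, stood below for Lhx1 (-1.93, others 0.24 to 0.81) and Batf3 (-3.15, others -0.24 to 0.11). Preparation 2 stood below for Fam160b1 (0.19, others 1.17 to 1.49) and Stra8 (-1.11, others 0.06 to 0.33). Preparation 5 stood below for Bcl6b (-0.53, others 0.44 to 0.82) and Mbd1 (-0.16, others 0.37 to 0.45). The part of detected genes in these values was not tested.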

How the results depend on the processing

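The number of genes called in limma was 0 under every alternative run, planned or added. At equal quartile the replicate block over 38 means of preparation, quartile and Hlf status gave 0 calls (smallest adjusted p 0.0924), no replicate block gave 0, and leaving out each preparation gave 0 to 0, with a smallest adjusted p between 0.0514 (without preparation 1) and 0.983 (without preparation 5). At equal detected genes and for bright minus dim cells, leaving out each preparation and the fit with no replicate block also gave 0. Leaving out the 32 cells between 0 and 1 FPKM, chosen after seeing the data, gave 0 (smallest adjusted p 0.276). Without the filter on low values 17106 genes were tested, and 8343 at the stricter one. The difference in detected genes ran from 91.1 (without preparation 3) to 228 when preparations were left out, and that in log2 fragments from -0.14 to -0.04. The 25 leading genes kept their sign in all 444 alternatives, though 64 values moved by more than the spread over preparations. They were chosen for the same sign in 5 of 5 preparations, so leaving out a preparation could not change it. The other alternatives reused the cells that chose these genes, so the count is no independent support. Of 4032 alternatives over all named genes, 202 changed sign, none of them called. On the scale of the text, Gfpt2 ran from 1.27 to 1.69 (smallest adjusted p 0.0897), Npdc1 from -1.44 to -0.42, Jtb from 0.36 to 1.22, Thg1l from -1.06 to -0.39 and Tm2d3 from 0.41 to 0.98; the values nearest 0 of these 4 came with Hlf-detected taken as Hlf above 0. With 5 preparations of 12 to 34 Hlf-detected cells each, and about 3.53 fragments per FPKM of Hlf, small differences were not detectable, and cells with missed Hlf transcripts may stand among the others.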
